A study of Canis lupus familiaris with 8 samples.

Results

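The resistance effect described here is the difference in microRNA (miRNA) level between the canine mammary tumour line CMT-Star (Star) and the line it came from, CMT-Stylo (Stylo), taken over unsorted and sorted cells together. All 8 samples of the series entered the comparison, 4 of Star and 4 of Stylo. Each line gave 2 samples of sorted cells and 2 of the unsorted parent cells, which makes 4 groups of 2. Star was grown from Stylo under rising doxorubicin over months until it withstood 100 nM, and its samples are labelled doxorubicin treated. Stylo is the drug-sensitive line and its samples are labelled untreated, so resistance and drug exposure cannot be told apart. The sorted cells, called cancer stem cells (CSC) in the labels, were CD44-positive, CD24-negative or low and aldehyde dehydrogenase-positive cells gated by flow cytometry. Both lines were kept in the same serum-containing medium. Star is 1 resistant subline, and the labels do not say whether replicates were separate cultures, so p-values speak only of the scatter among these samples, part or all of which may be technical. RNA labelled with Cy3 was hybridised to a 1-colour Agilent miRNA array with 454 canine miRNAs, of which 77 were detected in at least 1 sample, 56 could be tested and 22 were detected in every sample.

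Doxorubicin inserts into DNA and traps topoisomerase II, which breaks the DNA. Cells resist it by pumping it out through transporters such as ABCB1, by repairing or tolerating breaks, and by blocking cell death. miRNAs are short RNAs that guide the Argonaute complex to messenger RNAs, mostly through pairing in 3′ untranslated regions, and lower the output of those messages. In mammary epithelium and carcinoma, the let-7 family restrains RAS and HMGA2, and the miR-34 family is switched on by p53 after DNA damage. The miR-221 and miR-222 pair targets the cell cycle inhibitor CDKN1B. These roles were worked out mainly in human and mouse cells.

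The number of miRNAs detected per sample was 51 to 72 in Star and 25 to 60 in Stylo, and 2 Stylo columns of the deposited value table limit what can be compared. The columns of Stylo CSC replicate 1 and Stylo parent replicate 2 followed their scanner files in 420 and 417 of 475 entries, against 475 in the other 6 columns, and listed 30 and 25 detected miRNAs. The scanner files of Stylo parent replicates 1 and 2 held identical values and were counted as 1 array where scanner files were used. The 75th percentile of log2 totals over the 22 miRNAs detected in every sample was 6.41 to 7.04 in Star and 6.04 to 6.26 in Stylo, so the Star arrays were brighter. Each column was therefore set to 0 at that percentile. The values below are these scaled log2 levels, with undetected miRNAs at a common floor of −4.91. By the scanner file headers, the arrays of Star lay in slide row 2 and those of Stylo in slide row 1, so line and row cannot be told apart. Stylo CSC replicate 1 was on another slide. The file of Stylo parent replicate 2 gave the same slide position as that of replicate 1, so its own position is not known. Of the 11 epithelial marker miRNAs examined, 2 were detected in any sample. All 5 members of the miR-200 family, a defining epithelial group, were undetected in all 8 samples, and no muscle, endothelial, liver or fibroblast marker was detected. Of 8 haematopoietic markers 3 were detected in at least 1 sample (miR-155, miR-223 and miR-486), and of 8 neural markers 1 (miR-138a). The haematopoietic markers summed to 0.0908 to 0.178 in Star and 0 to 0.358 in Stylo, on the linear scaled level, and their part in the results was not tested.

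**Figure D1:**
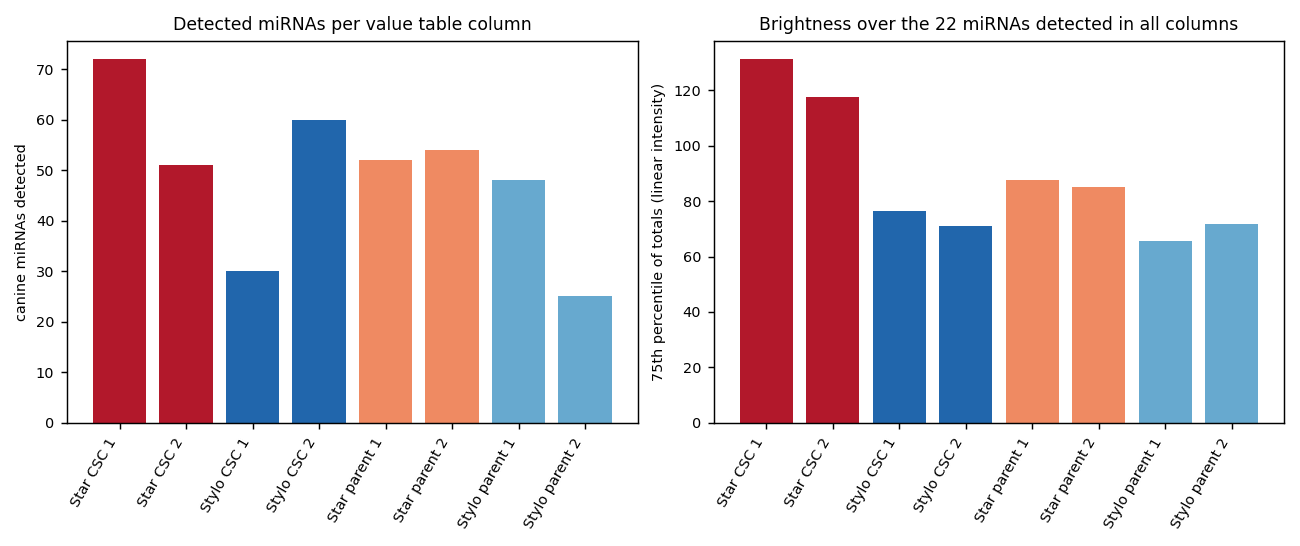
Left, number of canine miRNAs detected in each column of the value table (of 454); right, the 75th percentile of total signal (linear intensity) over the 22 miRNAs detected in every column. Bars are single samples. Stylo CSC replicate 1 and Stylo parent replicate 2 have the fewest detected miRNAs, 30 and 25, and the 4 Star samples are the brightest.

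With sorted state as a term, 3 of 56 miRNAs differed between Star and Stylo, all 3 higher in Star and none lower (limma, Benjamini-Hochberg adjusted p under 0.05, 5.36% of those tested). They were miR-188, miR-874 and miR-107. Under quantile normalization 4 passed (7.14%), 1 higher and 3 lower, and with no scaling 20 passed (35.7%), all 20 higher. At an unadjusted p under 0.05 the count was 12, with 8 higher and 4 lower. The filter required detection in both samples of at least 1 group, and 24 of the 56 miRNAs passed it through Star groups alone, as did all 3 that were called. Of these 24, 5 had a negative term. The filter favours a higher level in Star, so the direction of the 3 calls is no independent evidence. The lines did not overlap, in the same direction in CSC and in parent cells, for 14 of 56 miRNAs (25%), 8 of them higher in Star and 6 lower. Over both states, 8 of 56 (14.3%) did not overlap. In bulk RNA, a lower level per cell and fewer cells with the miRNA cannot be told apart.

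miR-188, which lies within CLCN5, showed the largest difference of the 3. It stood at −2.40 and −2.32 in Star CSC and at −3.20 and −3.16 in Star parent cells, against −3.96 in Stylo CSC replicate 2 and −3.95 in Stylo parent replicate 1. It was undetected in the other two Stylo samples, which are the 2 columns that depart from their scanner files. In the value table all 4 Star samples lay above all 4 Stylo samples. The scanner file of Stylo CSC replicate 1 goes the other way, with miR-188 well above background at −2.33, above all 4 Star arrays (−3.31 to −2.44), and the term over all 7 scanner arrays was 0.17 ± 0.34 (limma adjusted p = 0.854). The resistance term in the value table was 1.66 ± 0.33 (log2, SE; adjusted p = 0.032, limma). Within CSC the difference was 2.08 ± 0.44 (limma adjusted p = 0.031) and within parent cells 1.25 ± 0.44 (limma adjusted p = 0.093).

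miR-874, carried within KLHL3, stood at −2.80 and −2.82 in Star CSC and at −3.48 and −3.47 in Star parent cells. Among the Stylo samples it was detected only in CSC replicate 2, at −3.60. The lines did not overlap, with a term of 1.44 ± 0.28 (log2, SE; limma adjusted p = 0.032). In parent cells both Stylo samples were below detection, including Stylo parent replicate 2, whose column departs from its scanner file. Star was at least 1.65-fold higher there if the lowest level detected of any miRNA in each Stylo column is taken as the limit. That level is not a measured limit for miR-874 itself. The limma adjusted p in parent cells was 0.061, and the difference in CSC was 1.45 ± 0.42 (limma adjusted p = 0.080).

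miR-107 lies within PANK1, a pantothenate kinase gene, and together with miR-103 it is known in human cells to target DICER1, the enzyme that cuts miRNA precursors. Its levels were −3.87 and −3.90 in Star CSC and −4.39 and −4.43 in Star parent cells, and it was undetected in all 4 Stylo samples. The Star levels were thus close to the floor. The term was 0.76 ± 0.14 (log2, SE; limma adjusted p = 0.032). A bound made as for miR-874 was at least 1.04-fold in CSC, and none could be given in parent cells or over both states. The SEs of miR-107 carry no spread of Stylo, whose values all sat at the floor.

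An exact permutation test within sorted state gave p = 0.0556 for each of the 3, the smallest p this design allows (2-sided, 36 arrangements). Each call also depended on single samples. miR-107 lost its call without any 1 of the 4 Star samples (0.43 without Star CSC replicate 1, 0.44 without Star CSC replicate 2, 0.53 and 0.55 without Star parent replicates 1 and 2) and without Stylo CSC replicate 1 (1.01). miR-874 kept its call only without Stylo CSC replicate 2, and miR-188 only without Stylo parent replicate 1, over ranges of 1.21 to 1.98 and 1.43 to 2.13. Without both departing columns none of the 3 passed (limma adjusted p from 0.055 to 0.141), with terms of 1.34 for miR-188, 1.42 for miR-874 and 1.09 for miR-107.

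Of the other 17 miRNAs with a higher mean in Star in both states, none passed the test, and 5 had lines that did not overlap within either state. In 4 of these 5 at least 1 Stylo sample was undetected. miR-103, encoded within PANK2 and PANK3 and sharing the miR-107 family, stood at −2.22 and −2.51 in Star CSC and −2.87 and −2.94 in Star parent cells, against −2.90 and −3.12 in Stylo CSC and −3.35 in Stylo parent replicate 1. Star parent replicate 2 lay below Stylo CSC replicate 1, so the lines parted within each state but not across them. Its term was 0.94 ± 0.35 (log2, SE; limma adjusted p = 0.169). With the called miR-107 it made the median of this family of 2 0.85 (0.30 under quantile normalization) against 0.19 over all 56 miRNAs. miR-103 was undetected in Stylo parent replicate 2, a departing column, and miR-107 in all 4 Stylo samples, so that median rests partly on the floor. In the scanner files of the arrays behind the other 6 columns it was 0.28.

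miR-222, one of the pair that targets CDKN1B, ranged from −2.27 to −2.01 over the 4 Star samples. In Stylo it stood at −3.18 and −2.36 in CSC and at −2.49 in parent replicate 1. The term of 1.1 ± 0.53 (log2, SE; limma adjusted p = 0.238) rested on the undetected Stylo parent replicate 2, and without the 2 departing columns it was 0.44. miR-93 lies within MCM7, a gene of the DNA replication helicase, and belongs to the miR-17 family, whose members in human and mouse target the cell cycle inhibitor CDKN1A. It was nearly level across Star, at −3.56 and −3.56 in CSC and −3.48 and −3.47 in parent cells, against −3.73 in Stylo CSC replicate 2, the sole Stylo column with a detected value. The scanner file of Stylo CSC replicate 1, a departing column, held miR-93 well above background at −2.72, higher than all 4 Star arrays (−3.58 to −3.36). The term for miR-93 was 1.1 ± 0.28 (log2, SE; limma adjusted p = 0.079). miR-8815, a dog miRNA with no role given here, stood at −3.06, −3.32, −4.16 and −3.04 in Star CSC replicates 1 and 2 and Star parent replicates 1 and 2. Among the Stylo columns it was detected only in CSC replicate 2, at −4.00, whereas the scanner file of Stylo CSC replicate 1 held it well above background at −2.17, higher than all 4 Star arrays (−3.45 to −3.10). In the value table its term was 1.29 ± 0.30 (log2, SE; limma adjusted p = 0.062). miR-93 and miR-8815 both passed the filter through Star alone.

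miR-34a, the p53-induced miRNA, was the one miRNA detected in every sample whose lines did not overlap with Star higher in both CSC and parent cells. Its levels were −0.64 and −0.72 in Star CSC and −1.15 and −1.20 in Star parent cells, against −1.17 and −1.02 in Stylo CSC and −1.44 and −1.78 in Stylo parent cells. Over all 8 columns both states moved by a similar amount, 0.42 ± 0.13 in CSC and 0.43 ± 0.13 in parent cells (log2, SE; limma adjusted p of the difference 0.989). That likeness rested on the 2 departing columns. Without them the effect was 0.63 in CSC and 0.28 in parent cells. In the scanner files of the arrays behind the other 6 columns it was 0.52 and 0.09. The pooled term was 0.43 ± 0.12, a 1.34-fold difference (limma adjusted p = 0.108 over 56 miRNAs). Star parent and Stylo CSC samples overlapped, so the gap was visible only with sorted state held fixed.

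A further 6 miRNAs lay lower in Star within both states, and 2 of them, let-7b and let-7a, belong to the RAS-targeting let-7 family. Let-7b stood at 3.1 and 3.08 in Star CSC and at 2.71 and 2.73 in Star parent cells, against 3.24 and 3.19 in Stylo CSC and 3.41 and 3.33 in Stylo parent cells. No Star sample reached a Stylo sample. Its pooled term was −0.39 ± 0.14 (log2, SE; limma adjusted p = 0.169), and the gap was wider in parent cells than in CSC, −0.12 ± 0.06 in CSC and −0.65 ± 0.06 in parent cells (limma adjusted p of the difference 0.0091). Let-7a, which has a gene copy neighbouring that of let-7b, stood at 2.40 and 2.40 in Star CSC and 1.87 and 1.84 in Star parent cells, against 2.61 and 2.52 in Stylo CSC and 2.10 and 2.17 in Stylo parent cells. Its lines parted within each state, with a term of −0.22 ± 0.10 (log2, SE; limma adjusted p = 0.238). The array cannot be assumed to tell let-7 members apart fully, since their sequences are near-identical.

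miR-197, reported to target the tumour suppressor TUSC2 in human lung cancer cells, had the largest lower term among miRNAs detected in every sample. It stood at −2.08 and −2.27 in Star CSC and −1.87 and −1.76 in Star parent cells, against −1.50 and −0.82 in Stylo CSC and −1.58 and −1.17 in Stylo parent cells. All 4 Star samples lay below all 4 Stylo samples. The term was −0.73 ± 0.22, a 1.65-fold lower level (log2, SE; limma adjusted p = 0.115), with −1.01 ± 0.27 in CSC and −0.44 ± 0.27 in parent cells. miR-331, which targets ERBB2 in human prostate cancer cells, stood at −0.65 and −0.65 in Star CSC and −0.39 and −0.45 in Star parent cells, against −0.32 and −0.26 in Stylo CSC and −0.26 and −0.30 in Stylo parent cells. Again no sample of one line reached the other, and the term was −0.25 ± 0.11 (log2, SE; limma adjusted p = 0.219).

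Over all 8 columns, miR-193a and miR-494 lay lower in Star by nearly equal amounts in the 2 states. miR-193a, which represses the receptor KIT in human leukaemia cells, stood at −3.36 and −3.34 in Star CSC and −2.61 and −2.68 in Star parent cells, against −3.19 and −2.84 in Stylo CSC and −2.34 and −2.25 in Stylo parent cells. The difference was −0.33 ± 0.13 in CSC and −0.35 ± 0.13 in parent cells (log2, SE), and the pooled limma adjusted p was 0.169. For miR-494, a miRNA of the imprinted DLK1-DIO3 region, Star CSC stood at −0.32 and −0.27 and Star parent cells at 0.05 and 0.07, against −0.01 and 0.01 in Stylo CSC and 0.34 and 0.27 in Stylo parent cells. The lines parted within each state, by −0.30 ± 0.06 in CSC (limma adjusted p = 0.024) and −0.25 ± 0.06 in parent cells (limma adjusted p = 0.035), though the pooled term of −0.27 ± 0.10 did not pass (limma adjusted p = 0.169). Across states, Star parent cells lay above Stylo CSC for both miRNAs. Without the 2 departing columns the effect of miR-494 was −0.02 in CSC, near 0, and −0.26 in parent cells. That of miR-193a was −0.21 and −0.29 in the same order.

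**Figure D2:**
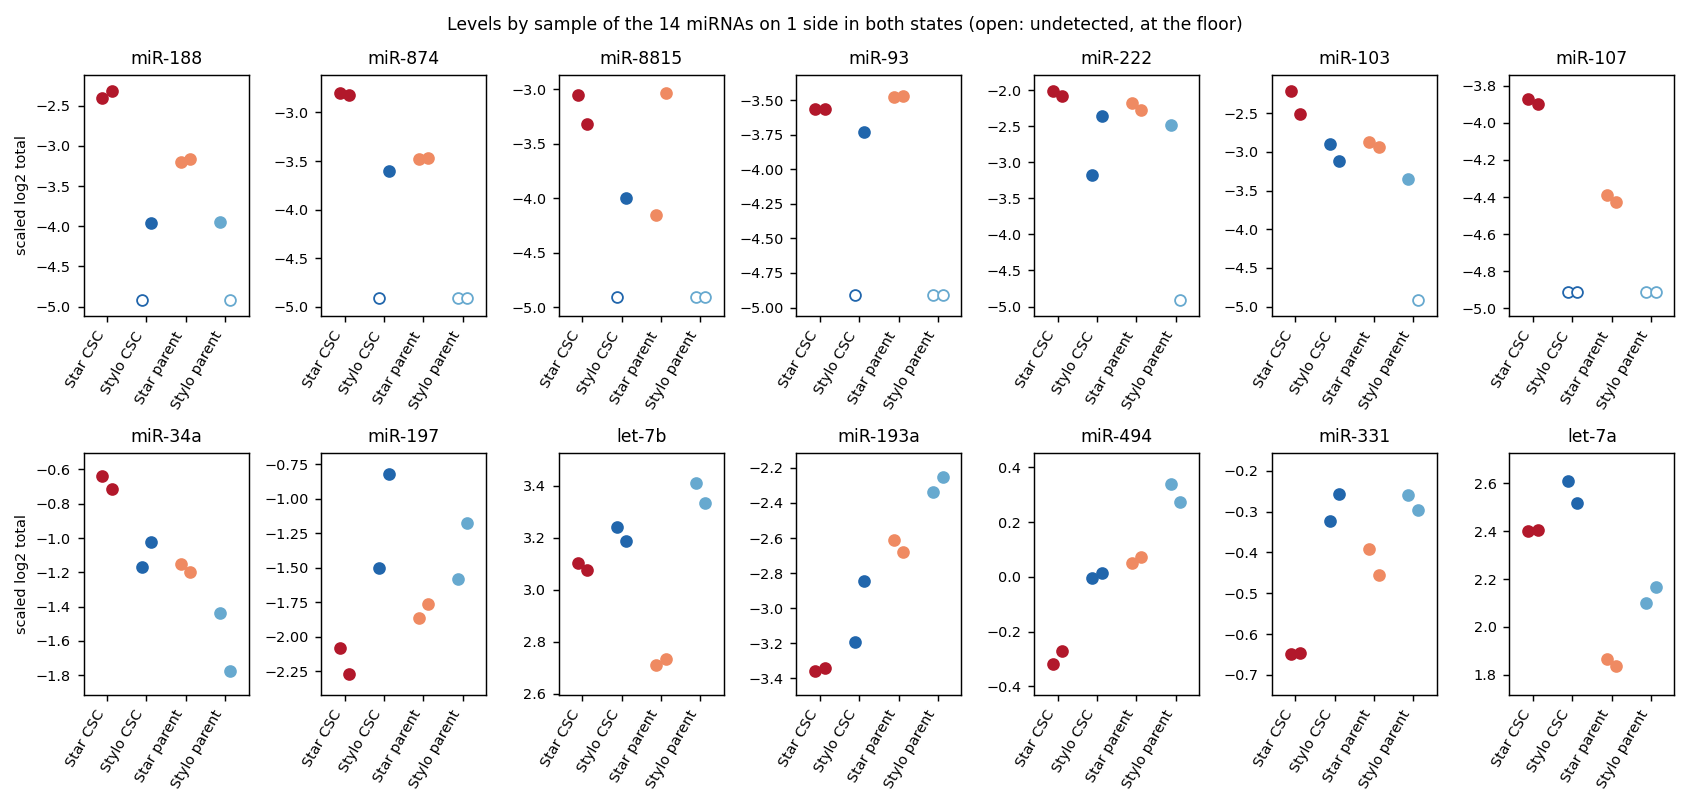
Scaled log2 level (y axis, 0 at the 75th percentile of each column) of the 14 miRNAs whose lines did not overlap, in the same direction, in CSC and in parent cells. Points are single samples and open points are undetected ones at the floor of −4.91. In the 8 miRNAs higher in Star, 7 owe part of the gap to open Stylo points, and miR-34a and the 6 lower miRNAs were measured in all 8 samples.

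With the filter narrowed to the 22 miRNAs detected in every sample, 7 of 22 passed the resistance term (limma, adjusted over the 22; 31.8%), 1 higher and 6 lower. These were miR-34a (limma adjusted p = 0.027), miR-197, let-7b, miR-193a, miR-494, miR-331 and let-7a. The floor plays no part in these values. None of the 7 passed without the 2 departing columns, and leaving out 1 sample at a time gave 0 to 7 calls among the 22, with 0 without any 1 of the 4 Star samples, 1 without Stylo CSC replicate 1, 7 without Stylo CSC replicate 2 (2 higher and 5 lower), 1 without Stylo parent replicate 1 and 2 without Stylo parent replicate 2. These were not the same 7, since miR-331 was called in none of the 8 fits. Without scaling to the 75th percentile, the median term over the 56 miRNAs was 0.64, against 0.19 with it. On that scale let-7b, let-7a, miR-193a, miR-494 and miR-331 were 0.16 to 0.32 higher in Star, while miR-34a stayed higher (0.97). miR-197 kept its sign but lay within 1 SE of 0 (−0.18 ± 0.21, limma adjusted p = 0.509). The lower levels of the first 5 are therefore relative to the bulk of detected miRNAs. For miR-197 a lower level was not shown without scaling. Whether the amount per cell of these 6 differs was not tested.

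The scanner files gave a further reading of the same term from spot signals rather than miRNA totals. On slide 1, which holds all arrays but Stylo CSC replicate 1, 4 of 50 miRNAs passed (limma, 8%), 1 higher and 3 lower in Star. miR-874 was higher by 0.50 ± 0.05 (log2, SE; limma adjusted p = 0.0173), with −2.90 and −2.94 in Star CSC and −3.16 and −3.08 in Star parent cells, against −3.44 in Stylo CSC and −3.61 in Stylo parent cells. It was well above background on all 4 Star arrays and on neither of these Stylo arrays, so it passed the scanner filter through Star alone. The Stylo parent value is the scanner floor. Slide 1 holds 1 Stylo array in each state, so no spread between Stylo replicates enters the SE. The direction of miR-874 in the scanner files is thus no independent evidence. Over all 7 scanner arrays, with Stylo CSC replicate 1 added, miR-874 was 0.51 ± 0.07 (limma adjusted p = 0.0338), while miR-93 (−0.15), miR-8815 (−0.17), let-7b (0.13), let-7a (0.08) and miR-331 (0.38) had the opposite sign to the value table, none past the threshold. On slide 1, miR-193a was lower by −0.37 ± 0.06 (limma adjusted p = 0.0361), with −3.35 and −3.44 in Star CSC and −2.60 and −2.61 in Star parent cells, against −3.06 in Stylo CSC and −2.20 in Stylo parent cells. The other two lower ones were miR-1249 (−0.55) and miR-8892 (−0.57), whose terms in the value table were 0.61 and 0.71, the opposite sign. They are named after their values were seen. miR-107 lay at the scanner floor on all slide 1 arrays, which gave no difference, and miR-188 gave 0.40 ± 0.33 (limma adjusted p = 0.451) with a difference of 1.06 in CSC and −0.25 in parent cells.

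The 6 value table columns that follow their scanner files are the same 6 arrays as those of slide 1, so they are 2 summaries of 1 set of hybridisations. Of the 20 miRNAs higher in Star in both states over all 8 columns, 10 stayed so in these 6 columns, and 7 of the 19 testable on slide 1 did. Of the 8 lower ones, 5 stayed so in the 6 columns, and 5 of the 7 testable on slide 1 did. In both, 11 kept their direction in CSC and in parent cells. They were miR-874, miR-8815, miR-93, miR-34a, miR-103, miR-222 and miR-320 among the higher ones, and miR-197, miR-193a, miR-494 and miR-331 among the lower ones. Let-7a and let-7b were not among them, since their CSC values turned positive there (0.17 and 0.19 in the 6 columns, 0.06 and 0.08 on slide 1). miR-320 has not been described above, and its slide 1 term was 0.02 ± 0.05, near 0. Some others kept their direction by values near 0 in 1 state. Examples are miR-494 in CSC (−0.019 in the 6 columns), miR-93 in CSC (0.038 on slide 1) and miR-34a in parent cells (0.094 on slide 1). miR-103 and miR-320 are named after their values were seen.

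**Figure D3:**
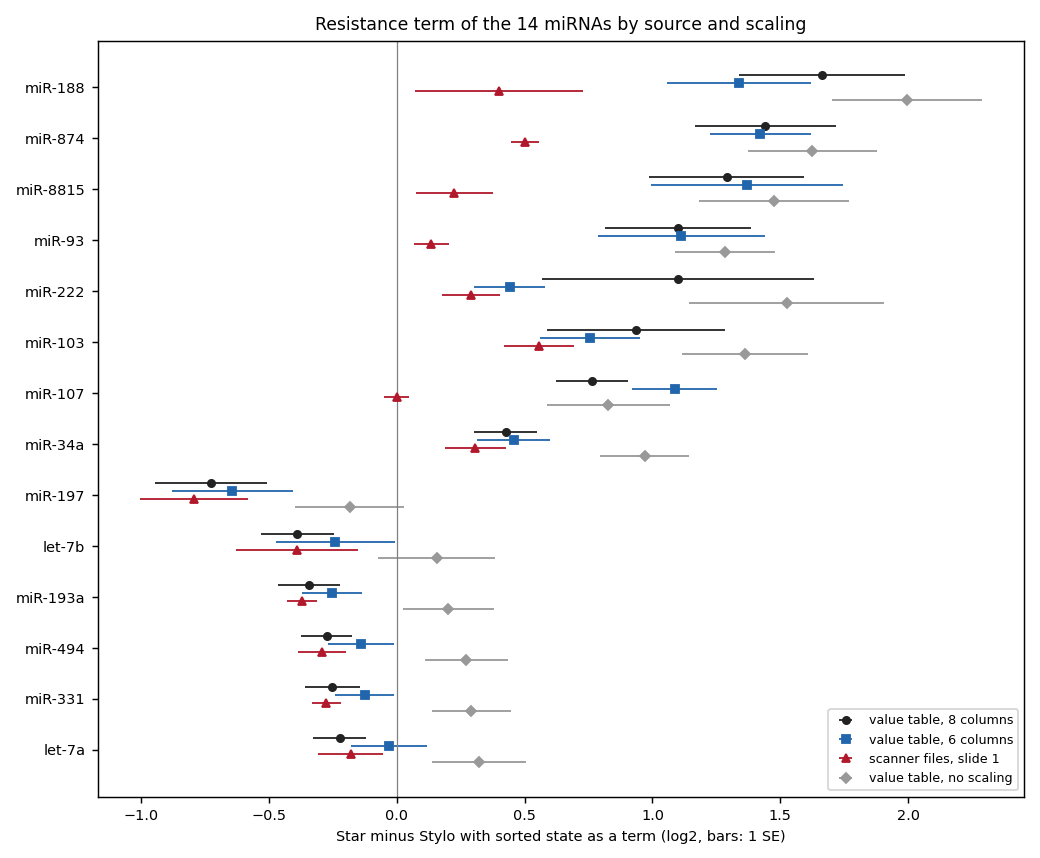
Resistance term (log2, Star minus Stylo, x axis) of the same 14 miRNAs from the 8 columns of the value table, from the 6 columns that follow their scanner files, from the slide 1 scanner files and from the value table without scaling. Bars are 1 SE. miR-34a stays above 0 and miR-197 below 0 in all 4, though the unscaled value of miR-197 lies within 1 SE of 0. The unscaled values lie to the right, and miR-107 is at 0 in the scanner files.

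CSC and parent cells were then compared with each other. Over the 56 tested, 28 had the same sign in the 2 states (20 higher and 8 lower), 25 had opposite signs and 3 were 0 in one state. Among the 22 detected in every sample, 9 had the same sign and 13 the opposite one. These signs depend on the scaling, and the Star CSC arrays were the brightest. With no scaling 43 of the 56 were higher in Star in both states, 1 was lower in both and 8 had opposite signs, and under quantile normalization these counts were 9, 16 and 27. Within CSC 11 of 56 passed (limma, 19.6%), 6 higher and 5 lower, and within parent cells 18 of 56 passed (32.1%), 10 higher and 8 lower. Scaling moved these splits, to 31 higher and 0 lower in CSC (55.4%) and 14 higher and 3 lower in parent cells (30.4%) with no scaling. Under quantile normalization they were 7 higher and 1 lower in CSC (14.3%) and 5 higher and 9 lower in parent cells (25%). Of the 6 miRNAs called in both states, 2 had the same sign, miR-107 higher (against Stylo values at the floor) and miR-494 lower in Star, and 4 had opposite signs (miR-15b, miR-22, miR-23b and let-7e). miR-15b, a family mate of miR-16, was 0.42 ± 0.06 in CSC and −1.06 ± 0.06 in parent cells on the log2 scale (limma, Star minus Stylo). Over all 7 scanner arrays the CSC effects of miR-23b (0.66) and miR-22 (0.013) had the sign of their parent effects. Those of miR-15b (0.12) and let-7e (1.43) had the opposite sign. The test of the difference between the 2 effects passed for 19 of 56 (33.9%), of which 14 had opposite signs, 3 the same sign and 2 were 0 in one state. Among the 22 detected in every sample, and fitted alone, 12 passed this test (54.5%), and 13 (59.1%) did without the 2 departing columns. The residual spread of the pooled term includes this difference between states. Since the 2 effects share no sample, their likeness can be described across miRNAs, which are not independent replicates. Pearson's r was −0.25 over the 22 miRNAs and 0.13 over the 56.

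**Figure D4:**
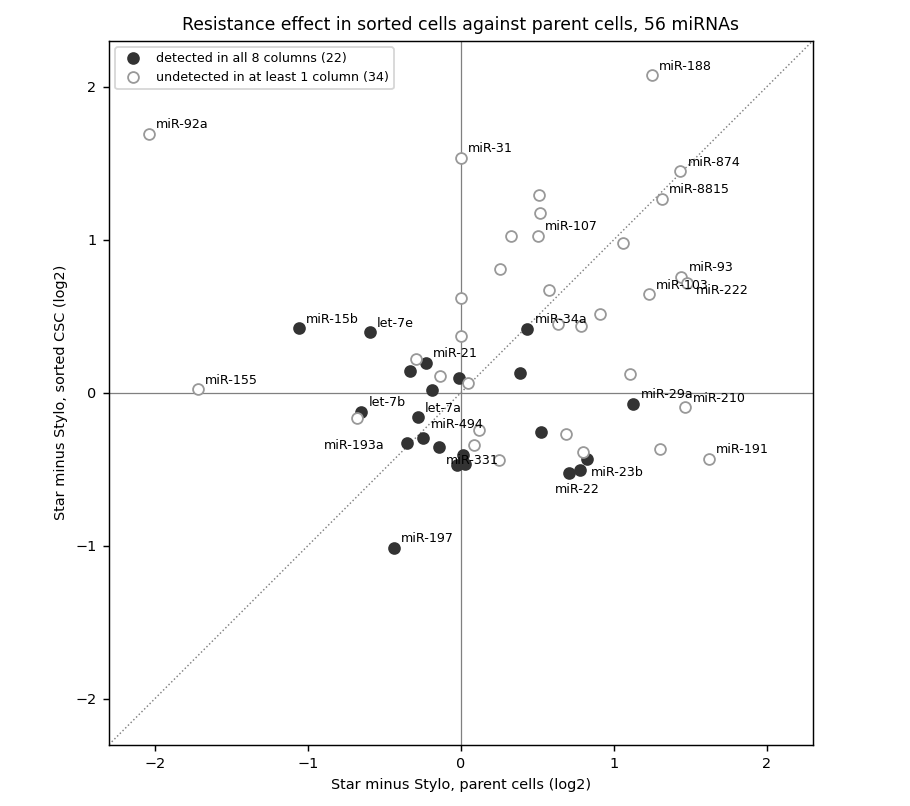
Star minus Stylo (log2) in sorted CSC (y axis) against parent cells (x axis) for the 56 miRNAs tested. Filled points are the 22 detected in all 8 columns, open points the 34 undetected in at least 1, and the dotted line marks equal effects. On this scaling 9 of the filled points share a sign in the 2 states and 13 do not. With no scaling 16 are higher in both and 1 is lower in both.

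The pooled term was near 0 or undecided for several miRNAs with a clear difference in 1 state. miR-29a, known for targeting collagen messages, stood at −2.49 and −2.51 in Star CSC and −1.47 and −1.54 in Star parent cells, against −2.40 and −2.46 in Stylo CSC and −2.56 and −2.70 in Stylo parent cells. In the value table only Star parent cells were high. The effect there was −0.07 ± 0.07 in CSC and 1.13 ± 0.07 in parent cells (log2, SE; limma adjusted p of the difference 0.0010), and the pooled value was 0.53 ± 0.26. The scanner file of Stylo CSC replicate 1, a departing column, held miR-29a well above background at −1.22, above both Star parent arrays (−1.58 and −1.61). Over all 7 scanner arrays the CSC effect of miR-29a was −0.55 and its pooled term −0.018. miR-155, an immune-associated miRNA also raised in many carcinomas, stood at −4.86 in Star CSC replicate 1, at −4.45 in both Star parent samples and at −2.75 and −2.71 in Stylo parent cells, and was undetected in the remaining 3 CSC samples. Its effect was 0.02 ± 0.05 in CSC and −1.72 ± 0.05 in parent cells (limma adjusted p of the difference 0.00023). The CSC values of miR-155 sat at the floor or near it, so its SEs carry little CSC spread and its CSC effect is no measured lack of difference. Stylo parent replicate 2 is a departing column. In the scanner files miR-155 was well above background only in Stylo parent cells, and its parent effect was −1.06 with Star parent arrays at the scanner floor.

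miR-31 showed the reverse arrangement, being detected only in Star CSC, at −3.27 and −3.49. There it was at least 1.48-fold higher than in Stylo CSC on the bound used for miR-874. It passed the filter through Star CSC alone. miR-210, the hypoxia-induced miRNA, stood at −2.90 and −3.40 in Star CSC and −3.53 and −3.36 in Star parent cells, against −3.12 and −2.98 in Stylo CSC, and was undetected in Stylo parent cells. Its effect was −0.09 ± 0.18 in CSC (log2, SE). In parent cells Star was higher (limma adjusted p = 0.0038), by at least 1.68-fold on the bound used for miR-874. miR-99b was likewise undetected in Stylo parent cells and at least 1.5-fold higher in Star parent cells on that bound, with −0.37 ± 0.32 in CSC. On slide 1, where the Stylo parent array sat at the scanner floor, the parent effects were 0.45 for miR-210 and 0.48 for miR-99b. miR-191 had an effect of −0.43 ± 0.41 in CSC and 1.62 ± 0.41 in parent cells. The parent value includes Stylo parent replicate 2, a departing column where miR-191 was undetected, against −3.66 in replicate 1. With undetected totals as missing the parent effect was 1.00, and on slide 1 it was 0.89.

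The widest gap between states was that of miR-92a, a member of the cluster that carries miR-17, best known as a promoter of proliferation. It stood at −2.38 and −2.59 in Star CSC and −4.08 and −4.05 in Star parent cells, against −3.44 in Stylo CSC replicate 2 and −1.74 and −2.31 in Stylo parent cells. Star was above Stylo in CSC (1.69 ± 0.51; limma adjusted p = 0.083) and below it in parent cells (−2.04 ± 0.51; limma adjusted p = 0.036), and the pooled term was −0.17 ± 0.80. The difference between states was 3.73 ± 0.72 (limma adjusted p = 0.014), a call lost without Star CSC replicate 2 (3.70) or Stylo parent replicate 1 (3.59). The undetected Stylo CSC replicate 1, a departing column, enters the CSC value. Its scanner file held miR-92a well above background at −1.22, above both Star CSC arrays (−2.49 and −2.71), and over all 7 scanner arrays the CSC effect was −0.29 (limma adjusted p = 0.886).

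miR-21, the abundant oncogenic miRNA often linked to drug resistance, showed no pooled difference in the value table. It stood at −1.42 and −1.42 in Star CSC and −1.84 and −1.97 in Star parent cells, against −1.60 and −1.64 in Stylo CSC and −1.62 and −1.72 in Stylo parent cells. There the 4 Star samples enclosed all 4 Stylo samples, with a pooled term of −0.02 ± 0.13 (log2, SE; limma adjusted p = 0.935). The effect was 0.20 ± 0.07 in CSC and −0.23 ± 0.07 in parent cells, and their difference passed (limma adjusted p = 0.033), a call lost without any 1 of the CSC samples (0.41 to 0.46) or Stylo parent replicate 1 (0.38). In the scanner files, miR-21 in Stylo CSC replicate 1 (−1.06) and in Stylo parent cells (−1.33) lay above all 4 Star arrays (−2.03 to −1.53). Stylo CSC replicate 2 (−1.72) lay among them. Over all 7 scanner arrays its CSC effect was −0.14 and its pooled term −0.35, and on slide 1 the pooled term was −0.24. Under quantile normalization the difference between states did not pass for miR-21, miR-29a, miR-155, miR-31, miR-210, miR-107 or let-7b. miR-221, the partner of miR-222, had a pooled term of −0.22 ± 0.19 (limma adjusted p = 0.520), the opposite sign to miR-222. miR-200c, miR-181a and miR-451 were undetected in all 8 samples.

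Grouped by family, most lists did not move as a block. Of the 9 let-7 members on the array 6 were tested, and none passed the pooled term. Let-7a and let-7b lay lower in both states, let-7g higher in both, and the other three had opposite signs. The let-7 median was −0.10 pooled, 0.12 in CSC and −0.31 in parent cells (with no scaling 0.44, 0.87 and 0.02, all positive). In parent cells 4 of the 6 were called lower against 8 of all 56 (14.3%). With no scaling none of these 4 passed, at 0.05 for let-7a, −0.32 for let-7b, −0.0018 for let-7c and −0.26 for let-7e. The count thus depends on the scaling. The difference between states passed for 3 of the 6, against 19 of all 56 (33.9%). In the value table the 3 tested members of the miR-23, miR-27 and miR-24 group all had opposite signs, with medians of −0.44 in CSC and 0.78 in parent cells (with no scaling 0.32 and 1.11, both positive). All 3 passed the test of the difference, against 19 of all 56 (33.9%). Its median was −1.26, or −0.84 with no scaling, and miR-23b stood at 0.51 and 0.52 in Star CSC and 0.86 and 0.83 in Star parent cells, against 1.03 and 1.02 in Stylo CSC and 0.08 and 0.04 in Stylo parent cells. The scanner file of Stylo CSC replicate 1, a departing column, held miR-23b at −1.24 and miR-27b at the scanner floor of −3.61. Over all 7 scanner arrays the CSC effect was 0.66 for miR-23b, 0.53 for miR-27b and −0.085 for miR-23a. On slide 1 it was −0.32, −0.395 and −0.019 in the same order. Of 22 miRNAs listed for drug efflux or doxorubicin response 7 were tested and none passed the pooled term, with 3 higher in both states, 4 of opposite sign and a median of 0.20 against 0.19 over all 56. Of the dog-specific miRNAs on the array 9 were tested and none passed, with 4 higher in both states and 5 of opposite sign. Over all 56 miRNAs, 3 passed the pooled term (5.36%), 20 were higher in both states and 25 had opposite signs.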

How the data were processed

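Total RNA (100 ng a sample, integrity number at least 7) was labelled with Cy3 and hybridised to 1-colour Agilent miRNA arrays, per the labels' protocols. Spot intensities, detection flags and totals per miRNA were made with Agilent Feature Extraction 11.5.1.1, per the file headers, with the version also in the submitters' processing notes. The authors' deposited value table holds log2 totals with an unstated shift per column, removed here by subtracting its Blank row, and is centred per miRNA on the 8-column median, as setting the columns against the scanner files showed (tolerance 0.01). The shift and log2 90th percentile of totals summed to 2.75 to 2.83 in the 6 matching columns, whose totals gave back absolute levels. An undetected total is 0.1 in the deposited intensity files.

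Levels were scaled to the 75th percentile over 22 miRNAs detected in every column, a floor of −4.91 was then set, and 56 miRNAs detected in both columns of at least 1 group were tested in limma 3.58.1 (R 4.3.3), with line and sorted state as terms (5 residual degrees of freedom) or with 4 group means, two-sided, Benjamini-Hochberg threshold 0.05. Scanner files (processed signal, 7 arrays, 1 of the 2 identical files dropped) were scaled likewise; normexp (offset 50) used the median signal, the column given. The precision is limited by the number of arrays. On each array 4.19% to 8.78% of 18160 spots were well above background and none was saturated. The alternatives were other scalings, filters, floors, terms, columns, slides and leaving out each sample. The script was tested on simulated data. Host and neighbour genes came from the RefSeq annotation of UU_Cfam_GSD_1.0, another build than that of the array design, so names only were used; miRNA sequences were not used here.

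Named miRNAs were those past the threshold with the same sign in both states, the 5 highest and 5 lowest same-sign terms among the 20 smallest p-values, 5 with the widest difference between states, 5 with the largest effects of opposite sign, and 11 of known role. Members and lists were chosen with earlier results of these data known.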

Additional observations from a re-analysis of the deposited data

Results flagged for a closer look

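Stylo CSC replicate 2 stood apart from the other 3 Stylo samples for miR-874, miR-8815 and miR-93, with a gap equal to the whole range of the group (1.00 in each case), since the other 3 were tied at the floor. Such ties give this value for any miRNA detected in 1 of 4 samples, so the usual chance rate of about 1 in 20 groups does not apply. The other Stylo columns include the 2 that depart from their scanner files.

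The effect of resistance differed between CSC and parent cells, by the limma test of the difference itself, for 10 of the named miRNAs. As CSC effect minus parent effect, the difference was 3.73 for miR-92a, 1.74 for miR-155, 1.54 for miR-31, 0.53 for let-7b, 0.52 for miR-107, whose Stylo values all sat at the floor, and 0.43 for miR-21. It was −2.05 for miR-191, −1.67 for miR-99b, −1.56 for miR-210 and −1.20 for miR-29a. Leaving out each sample in turn gave 0.49 to 0.64 for let-7b, 1.15 to 1.81 for miR-31, 1.72 to 1.90 for miR-155 and −1.27 to −1.05 for miR-29a. miR-31 passed the filter through Star CSC alone and sat at the floor elsewhere. The CSC values of miR-155 sat at the floor or near it. For these 2 such fits are no independent support. The call was lost for miR-107 without Stylo parent replicate 2 (0.42) and for miR-210 without Star parent replicate 2 (−1.20). For miR-92a it was lost without Star CSC replicate 2 (3.70) or Stylo parent replicate 1 (3.59). miR-21 kept it in 3 of 8 fits (0.36 to 0.56), and miR-191 (−2.96 to −1.35) and miR-99b (−2.18 to −0.95) in 2 of 8 each.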

How the results depend on the processing

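The 3 calls of the resistance term became 20 with no scaling, 6 with scaling to the mean of common miRNAs, 7 with only miRNAs detected in every column and 5 with those detected in at least 1. They became 1 with undetected totals as the software gives them, 0 with no term for sorted state (6 at an unadjusted p under 0.05 in limma), 0 without the 2 departing columns (17 unadjusted) and 18 (4 higher, 14 lower) with undetected totals as missing, an alternative chosen after seeing the data. Scanner files gave 1 over all arrays, 4 on slide 1, 3 with slide as a block and 0 after normexp (20 unadjusted). Leaving out each sample gave 0 to 4.

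For parent cells (18 calls) the counts were 30 without the 2 columns, 1, 33, 32 and 0 in those 4 scanner sets and 11 at 2-fold with an unadjusted p under 0.05, and 6 to 20 without 1 sample (6 without Star parent replicate 1). For CSC (11 calls) they were 31 with no scaling, 35 without the 2 columns, 27 with undetected as missing, 3, 31, 26 and 0 in the scanner sets, 7 at 2-fold and 7 to 19 without 1 sample (7 without Stylo parent replicate 2, 19 without Stylo CSC replicate 1). For the difference between states (19 calls) they were 9 under quantile normalization, 12 among miRNAs detected in every column, 37 without the 2 columns, 0, 31, 30 and 0 in the scanner sets, 11 at 2-fold and 15 to 26 without 1 sample. The 7 calls among the 22 miRNAs became 0 without the 2 columns and 0 to 7 without 1 sample, and the 12 differences 11 to 14; these narrower fits were chosen after seeing the data.

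With the replicate number as a block none of the 3 or of the 7 passed (limma adjusted p = 0.059 for the 3, 0.055 to 0.077 for the 7), and the difference between states had 18 calls. The deviations of same-numbered samples correlated at −0.80 to −0.74 for pairs with Star CSC and 0.77 to 0.92 for the others, so the numbers are not shown to pair the samples. The slide block could be set only for scanner files.

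Of 513 alternative values of 22 named miRNAs 47 changed sign, and miR-34a and miR-197 never did. With no scaling these were let-7b 0.16, miR-193a 0.20, miR-494 0.27, miR-331 0.29, miR-92a 0.28, miR-21 0.53, let-7a 0.32 and miR-221 0.32. Over all scanner arrays they were miR-8815 −0.17, miR-93 −0.15, let-7b 0.13, miR-331 0.38, let-7a 0.076, miR-221 0.041 and miR-29a −0.018. After normexp 40 of 46 miRNAs lay below 0, with a median term of −0.35, so a change to a negative sign there is not particular to the named ones. Those that changed sign after normexp were miR-188 −0.31, miR-874 −0.27, miR-107 −0.38, miR-8815 −0.44, miR-93 −0.40, miR-222 −0.19, let-7b 0.25, miR-191 −0.33, miR-99b −0.34, miR-210 −0.24, let-7a 0.19, miR-29a −0.32 and miR-31 −0.29. Quantile normalization turned miR-107 (−0.0063) and miR-99b (−0.12), undetected as missing miR-99b (−0.37) and miR-210 (−0.095), the software's totals miR-92a (0.99) and miR-155 (0.14), mean scaling miR-21 (0.18), leaving out the 2 columns miR-21 (0.12) and miR-221 (0.087), and slide 1, with or without the block, miR-221 (0.026). Leaving out 1 sample gave miR-92a −0.84 to 0.40 and miR-21 −0.067 to 0.089, positive without any 1 parent sample. The causes were not tested. Signals near background limit most of the miRNAs undetected in some columns.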
